A study of Mus musculus with 8 samples.

Results

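The cytosolic initiation and elongation factors outside the eIF4 family are the proteins that load, check and move the ribosome. They were taken as every gene whose symbol begins with Eif1, Eif2, Eif3, Eif5, Eif6, Eef1 or Eef2, leaving out the eIF2 kinases, the eEF2 kinase and the eEF1A and eEF2 methyltransferases. The symbol pattern matched 52 genes before and 42 after those exclusions, of 21949 genes in the files. They comprise 14 genes for eIF3 subunits, which are kept apart because eIF3 has been reported as a partner of MIWI, and 28 others. A gene was represented by its transcript of highest average fragment count across the 8 libraries. The chosen transcripts were all protein coding, and 38 of the 42 were also those marked canonical in the files. A count filter kept 41 genes for testing. Eef1a2, the eEF1A copy of muscle and neurons, did not pass it, with 1 to 3 counts in each RNA library and 4 to 9 in each footprint library.

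The samples were testes of C57BL/6 mice at postnatal day 24, either wild type (WT) or Miwi-null, with 2 libraries in each of the 4 groups. Miwi is the usual name for Piwil1, which encodes the piRNA-binding Argonaute protein MIWI of meiotic and postmeiotic germ cells. Each genotype was profiled as total RNA and as ribosome-protected fragments (RPF), also called footprints, which are stretches of mRNA covered by a ribosome during nuclease digestion. How the null allele was made, and how many animals went into a library, is not stated in the labels. P-values therefore reflect only how much the replicate libraries differ, and some of that may be technical.

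Initiation begins when eIF1, eIF1A, eIF3 and eIF5 gather on the small ribosomal subunit and eIF2, bound to GTP, brings the initiator tRNA. eIF2B recharges eIF2 with GTP after each round, and eIF5B joins the large subunit. In elongation eEF1A brings each aminoacyl-tRNA, the eEF1B subunits recharge eEF1A, and eEF2 moves the ribosome along the mRNA. Many mRNAs of the translation machinery start with a C followed by an unbroken run of C and T letters, the 5′ terminal oligopyrimidine tract through which the mTOR pathway controls their translation.

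The start sites of 33 of the 42 genes were found in the RefSeq promoter table of GRCm38.p6. The search was for a run of at least 5 letters that begins with C and holds only C or T, on the strand of the gene. With the C on the annotated start base, such a run was present in 2 of the 33 (6.06%), Eif3f and Eif2s3x, against 3.01% of the 12295 tested genes with a promoter in the table. With the C anywhere in the first 5 bases it was present in 6 (18.2%) against 12.7%, the added 4 being Eif2s3y, Eif3l, Eif3b and Eif1ad. A run that covers the start base, with its C at or before that base, was present in 5 (15.2%) against 9.41%, namely Eif3f, Eif2s3x, Eif3l, Eif2b5 and Eef1a1. The windows below hold 15 bases before and 15 from the start base of the eIF3 subunit and the eIF2 gamma copies that differ most in the results, and of both main elongation factors. Capitals mark the run, which in Eef1a1 begins before the start base and extends past it.
Eif3f, chr7:108934400-108934429, plus strand: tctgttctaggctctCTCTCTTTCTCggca
Eif2s3x, chrX:94212637-94212666, minus strand: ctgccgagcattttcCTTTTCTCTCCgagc
Eif2s3y, chrY:1010580-1010609, plus strand: gcggaggccacagccaCTTCCTTCTTTCgt
Eef2, chr10:81176616-81176645, plus strand: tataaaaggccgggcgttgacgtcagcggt
Eef1a1, chr9:78481710-78481739, minus strand: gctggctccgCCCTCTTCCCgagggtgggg
A run at an annotated start is a match of letters only. In Eef2 none of the 3 searches found one. Only annotated starts were read, and the starts used in these testes were not measured. A miss therefore does not show that a tract is absent. The 9 genes without a start site in the table include Eef1g and Eef1d.

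Fragment counts over all genes came to between 11130949 and 15592797 in the RNA libraries and between 11662661 and 28334622 in the RPF libraries, so 1 count was worth 0.0353 to 0.0898 CPM, the count scaled to a common library size. Piwil1 had 8215 and 7165 counts in WT RNA against 46 and 26 in null RNA, and 14206 and 6868 in WT RPF against 37 and 94 in null RPF, so each library carried the level its label calls for. Replicates differed by more than counting noise in every group, by little in null RNA (chi-square per degree of freedom 1.18) and by far more in the footprints (42.0 in WT and 21.2 in null). Among the footprints the shallower library of each genotype, WT replicate 2 and null replicate 1, stood apart in the same direction for several factor genes. Eif5b, for example, had 1.97 times the CPM of the deeper library in WT and 1.58 times in null, while Eef1a1 had 0.667 and 0.689 times. Both genotypes held 1 library of each kind.

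The cell types behind these bulk libraries also differed. Of 8 late spermatid markers 8 fell in RNA, in RPF and in RPF relative to RNA, from a summed 13337 and 13384 CPM in WT RNA to 1524 and 1526 in null, and from 6703 and 6248 CPM in WT RPF to 60.2 and 61.9 in null. Of 8 meiotic markers 6 rose in RNA (481 and 561 to 998 and 972 CPM summed). Of 8 Leydig markers 4 rose and 1 fell in RNA (1185 and 1187 to 2383 and 2404 CPM). Sertoli markers fell for 5 of 8 (1732 and 1656 to 1297 and 1305 CPM), spermatogonial markers for 4 of 8 (176 and 177 to 133 and 135 CPM) and myoid markers for 7 of 8 (583 and 569 to 178 and 178 CPM). Round spermatid markers fell for 2 of 8 (2164 and 2175 to 1639 and 1667 CPM), and of 8 macrophage markers 2 rose and 1 fell (160 and 178 to 130 and 127 CPM). In RPF 7 of the 8 round spermatid markers fell and 1 rose (2144 and 1868 to 980.2 and 1079 CPM), and 5 of the 8 Leydig markers rose (2720 and 2473 to 7759 and 9177 CPM). Only 1 meiotic marker rose there (2567 and 2566 to 2324 and 2467 CPM). Sertoli markers in RPF had 2 that fell and 1 that rose (4140 and 4111 to 3902 and 4054 CPM), myoid markers 4 that fell (568 and 524 to 303 and 328 CPM), spermatogonial markers 1 that fell (476 and 542 to 439 and 399 CPM) and macrophage markers 1 each way (173 and 161 to 150.1 and 159 CPM). None of these markers had 0 counts in any library, and the lowest single value was 1 count, for a spermatogonial marker. In bulk testes fewer cells of a type and less RNA per cell cannot be told apart, and the part of these shifts in the results on the factor genes was not tested.

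In WT testes Eef1a1, Eef2 and Eif1 had the most abundant mRNAs of the set, and they carried few footprints for their RNA. Other genes of the same groups stood on the other side, since 2 of the 6 elongation genes and 3 of the 5 eIF1 and eIF1A genes stood higher in footprints than in RNA. Per coding length (the authors' FPKM, fragments scaled by coding length and library total), Eef1a1 stood at 1422 and 1388 in the WT RNA libraries, Eef2 at 1202 and 1047 and Eif1 at 1018 and 1065. Eef1a1 lay above the other two in both libraries, and Eef2 and Eif1 overlapped. Next came Eif5a at 490 and 518. At the low end of the tested genes were Eif2s3x at 4.93 and 5.56, Eif2a at 5.96 and 6.91 and Eif2b3 at 6.95 and 6.41. Among footprints Eif1b led with 1206 and 1103 FPKM, and Eif2d was lowest of the tested genes with 9.996 and 9.652. The 42 genes took 1.225% and 1.202% of all WT RNA counts but 0.813% and 0.893% of WT RPF counts. Eef1a1 and Eef2 alone took 0.610% and 0.567% of the RNA and 0.0998% and 0.0854% of the footprints, while the other 40 took 0.615% and 0.636% of the RNA and 0.714% and 0.807% of the footprints.

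The fit of RPF against RNA in WT asks where each mRNA stands in footprints relative to the bulk of genes. Of the 41 genes 21 stood higher and 10 lower, with a median log2 ratio of 0.45, while 37.7% of all genes tested stood higher and 36.4% lower around a median of 0.01. The lowest were Eef1a1 at -2.83 ± 0.22 (SE), Eef2 at -2.71 ± 0.10, Eef1g at -2.02 ± 0.21, Eif1 at -1.84 ± 0.18 and Eif2b4 at -1.15 ± 0.10. The highest were Eif3j2 at 3.21 ± 0.32, Eif2b3 at 2.11 ± 0.14, Eif2s3y at 2.07 ± 0.12, Eif1a at 2.004 ± 0.18, Eif1ax at 1.98 ± 0.14, Eef1e1 at 1.86 ± 0.13, Eif1b at 1.71 ± 0.09 and Eif5b at 1.51 ± 0.31. Close copies thus differed: Eif1b had 3.27 times as many CPM in RPF as in RNA and Eif1 0.279 times. Of the 31 called values 25 held in every alternative. Without WT RNA replicate 1 Eif2s1 (adjusted p = 0.0704), Eif3b (0.0726), Eif3d (0.0533) and Eif3f (0.124) missed the threshold, as did Eif6 without WT RNA replicate 2 (0.0855), and Eif3b without WT RPF replicate 1 (0.0552). Eif3f, at -0.36 ± 0.14, missed it without 6 of the 8 libraries taken singly (0.0547 to 0.197). Eef1d stood at -0.69 ± 0.09 and, with its canonical transcript counted instead, at -0.08 (adjusted p = 0.442).

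**Figure D1:**
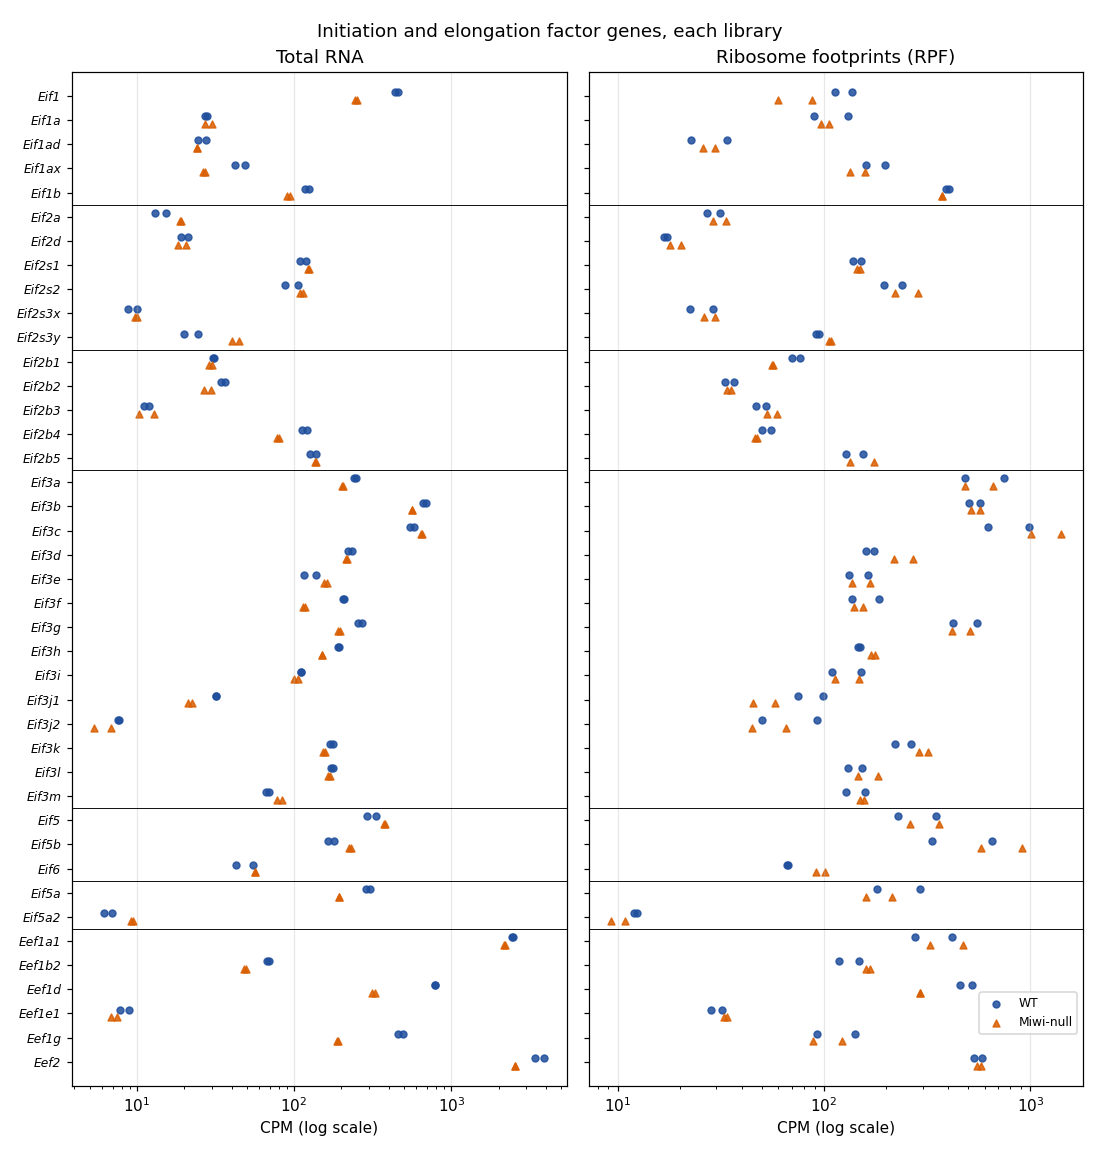
CPM of each of the 41 tested genes in each library (log scale), RNA on the left and RPF on the right, with circles for WT and triangles for Miwi-null and lines between the role groups. In RNA the null triangles of Eef1g (189 and 187 CPM) sit well to the left of the WT circles (458 and 490), while in RPF they overlap.

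Between genotypes, the factor mRNAs that changed mostly fell in RNA, and fewer passed the test in footprints, where the count depended on how the library kinds were treated. In RNA 13 of the 41 genes fell and 3 rose in the null testes (edgeR quasi-likelihood test, Benjamini-Hochberg adjusted p under 0.05 over 16051 genes), while 20.8% of all genes tested fell and 16.5% rose. The median log2 change was -0.11, against -0.07 for all genes. In RPF 4 fell and 2 rose, against 13.4% and 12% of all genes, and the median was 0.03 against -0.00. Translational efficiency (TE), tested as the interaction of genotype and assay, rose for 7 genes and fell for 2, against 7.36% and 7.56% of all genes, with a median log2 change of 0.20 against 0.04. Of the 14 eIF3 genes 4 fell in RNA, 1 moved each way in RPF and 3 rose in TE. In the opposite direction edgeR called 0 eIF3 genes in RNA and 0 in TE, and the count was also 0 at an unadjusted p under 0.05 and with DESeq2. Eif3c, Eif3e and Eif3m were, however, called higher in RNA with RNA fitted alone. They were also called higher with a term for library kind, described below, which called Eif3e lower in TE. The 27 other tested genes had 9 that fell and 3 that rose in RNA, 3 and 1 in RPF, and 2 and 4 in TE. The shares of all genes given above also stand beside the counts by role below, which were not tested against them. By share of counts, the 42 genes went from 1.225% and 1.202% in WT RNA to 1.026% and 1.023% in null RNA, and the RPF shares overlapped (0.813% and 0.893% in WT, 0.911% and 0.848% in null).

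These counts rest on a spread pooled over both assays, with 2 libraries a group. With each assay fitted alone 28 genes were called in RNA and 1, Eef1d, in RPF, while the share of all genes called went from 37.3% to 59.3% in RNA and from 25.4% to 12.7% in RPF. The shallower footprint library was replicate 2 in WT and replicate 1 in null, and the replicate differences of the genotypes ran opposite (r = -0.831). With that library kind as a term in the fit, an alternative added after seeing the data, 20 of the 41 genes were called in RPF, 11 higher and 9 lower, against 51% of all genes. The 14 added were Eef1a1, Eef1b2, Eif1ax, Eif2b4, Eif2s2, Eif2s3y, Eif3c, Eif3h, Eif3j2, Eif3k, Eif3l, Eif5a, Eif5a2 and Eif5b, led by Eif5b at 0.64 ± 0.06 and Eif3c at 0.60 ± 0.05. The term was chosen from the same replicate differences that set the errors, so its SEs and adjusted p-values may be too small. In the same fit 9 genes were higher and 18 lower in RNA, against 56.7% of all genes called. The RNA libraries do not carry the term, and their calls changed through the shared spread. In TE 20 were higher and 4 lower, against 40.7%. Leaving out WT RNA replicate 1 or 2, or null RNA replicate 1 or 2, left 9, 8, 8 and 8 calls in RNA and 0, 1, 0 and 0 in TE, where 12, 12, 10 and 10 genes had an unadjusted p under 0.05. Without null RPF replicate 1 or 2 the TE calls were 4 and 3. Without WT RPF replicate 2 the RPF calls were 11, and without null RPF replicate 1 they were 4. In each of these fits with a library left out, the share of all genes called moved the same way as the calls among the 41 genes. DESeq2 called 13 genes in RNA, 6 in RPF and 7 in TE on all libraries, against 31%, 20.8% and 12.9% of all genes. Scaling by library totals alone moved the TE median of all genes from 0.04 to -0.10 and called 2 genes higher and 2 lower in TE, so TE changes are relative to the bulk of genes. Eef1d, Eef1g, Eef2, Eif1ax, Eif2b4, Eif2s3y and Eif3f were called in RNA under every alternative, Eef1d was in RPF, and 0 genes were in TE.

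**Figure D2:**
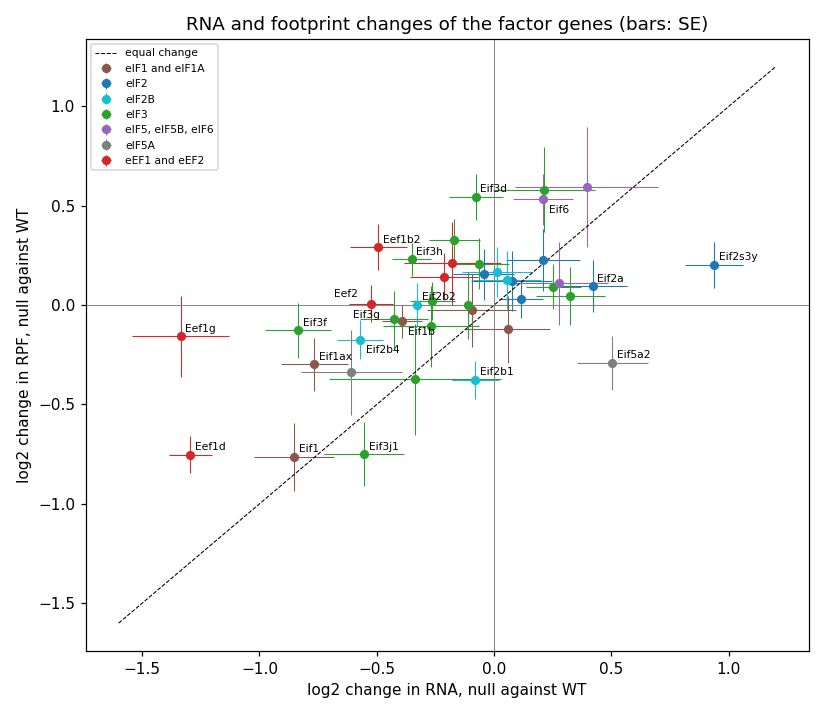
Log2 change in RNA (horizontal) against log2 change in RPF (vertical), null against WT, for the 41 tested genes coloured by role, with SE bars and a dashed line of equal change. Genes called in any of the RNA, RPF or TE comparisons are named: Eef1d lies at -1.29 and -0.75, Eef1g at -1.34 and -0.16, and Eif2s3y at 0.94 and 0.20.

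The factors eIF1 and eIF1A hold the scanning complex open until the start codon is found. Of the 5 genes grouped under their names, Eif1ad included, 3 fell in RNA and 1 in RPF. Eif1 had 435 and 458 CPM in WT RNA and 251 and 244 in null RNA, and 113 and 136 CPM in WT RPF and 87.8 and 59.5 in null RPF. The groups did not overlap in either assay. Its RNA fell by 0.85 ± 0.17 on the log2 scale (adjusted p = 0.00515) and its footprints by 0.76 ± 0.17 (adjusted p = 0.0127), which left TE at 0.09 ± 0.24 (adjusted p = 0.853). Eif1b, a near copy of Eif1, had 118 and 125 CPM in WT RNA against 90.2 and 94.8 in null RNA, a fall of 0.39 ± 0.09 (adjusted p = 0.00761). Its footprints were level, at 403 and 391 CPM in WT and 375 and 375 in null (-0.08 ± 0.08). Eif1ax, the X-linked eIF1A gene, went from 42.2 and 48.4 CPM in WT RNA to 26.2 and 27.1 in null, a fall of 0.77 ± 0.14 (adjusted p = 0.00361), with RPF at -0.30 ± 0.13 (adjusted p = 0.139). Its autosomal copy Eif1a stood at 27.1 and 27.8 CPM in WT RNA and 30.1 and 26.9 in null, groups that overlapped (0.06 ± 0.18). Eif1ad, an eIF1A domain protein, was at -0.10 ± 0.19 in RNA and -0.03 ± 0.18 in RPF.

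Among those eIF1 group calls, Eif1b in RNA missed the threshold without WT RNA replicate 2 (adjusted p = 0.0564), null RNA replicate 1 (0.0979) or null RNA replicate 2 (0.0560). With the trend of change on coding length removed its RNA value was 0.06 (adjusted p = 0.632), and Eif1 was at -0.40 in RNA (adjusted p = 0.0989) and -0.50 in RPF (adjusted p = 0.0619). With RPF fitted alone Eif1 was at -0.76 (adjusted p = 0.0899). Fragments shared by near copies such as Eif1 and Eif1b or Eif1a and Eif1ax may have been assigned to either, since the handling of multiply mapping fragments is not given.

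Of the 6 eIF2 group genes, 2 rose in RNA (1 with DESeq2), and 0 were called in RPF with edgeR (0 at an unadjusted p under 0.05 and 0 with DESeq2). With library kind as a term Eif2s2 and Eif2s3y were called higher in RPF, against 51% of all genes called. eIF2 has 3 subunits, and the mouse carries its gamma subunit on both sex chromosomes, as Eif2s3x and Eif2s3y. The Y-linked Eif2s3y (ENSMUSG00000069049.11, chromosome Y, 1010562 to 1049134, GRCm38), which is known to be needed for spermatogonial proliferation, had 19.9 and 24.5 CPM in WT RNA and 40.4 and 44.7 in null RNA. It had 95.003 and 91.0 CPM in WT RPF and 109 and 106 in null RPF. Its RNA rose by 0.94 ± 0.12 (adjusted p = 0.00062), its footprints were at 0.20 ± 0.12 (adjusted p = 0.236), and its TE fell by 0.73 ± 0.17 (adjusted p = 0.0236). The X-linked copy was flat, at 8.80 and 9.98 CPM in WT RNA and 9.73 and 10.03 in null, and 22.4 and 29.0 CPM in WT RPF and 29.7 and 26.2 in null. The ratio of Eif2s3y to Eif2s3x CPM was 2.27 and 2.46 in WT RNA and 4.15 and 4.46 in null RNA, without overlap. In RPF it was 4.23 and 3.14 in WT and 3.65 and 4.03 in null, where the groups overlapped.

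The alpha subunit gene Eif2s1, whose product is the target of the stress kinases, had 109 and 119 CPM in WT RNA and 124 and 122 in null, and 139 and 150 CPM in WT RPF and 150 and 145 in null. Its changes were 0.12 ± 0.09 in RNA and 0.03 ± 0.09 in RPF. Eif2s2, for the beta subunit, stood at 0.21 ± 0.16 and 0.23 ± 0.15. Outside the trimer, Eif2a, for an alternative carrier of initiator tRNA, rose in RNA from 13.1 and 15.3 CPM to 18.8 and 19.2 (0.42 ± 0.14, adjusted p = 0.0490). DESeq2 did not call this rise of Eif2a. Eif2d was at -0.04 ± 0.13. Leaving out any 1 RNA library took Eif2a to an adjusted p between 0.0748 and 0.259. For Eif2s3y in TE the adjusted p was 0.105 without WT RNA replicate 1, 0.0791 and 0.124 without null RNA replicate 1 and 2, and 0.0504 without null RPF replicate 2.

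The 5 eIF2B subunit genes were Eif2b1 to Eif2b5, of which 2 fell in RNA and 1 in RPF. Eif2b4, for a regulatory subunit, had 121 and 113 CPM in WT RNA and 77.7 and 79.9 in null, a fall of 0.57 ± 0.10 (adjusted p = 0.00238), against 55.4 and 50.04 CPM in WT RPF and 47.5 and 46.1 in null (-0.17 ± 0.10). Eif2b2 fell by 0.33 ± 0.11 in RNA (adjusted p = 0.0483), from 34.1 and 36.6 CPM to 29.6 and 26.7. Eif2b1 was level in RNA (30.6 and 31.1 CPM against 28.6 and 29.8) and fell in RPF, from 76.2 and 69.6 CPM to 55.9 and 56.4 (-0.38 ± 0.09, adjusted p = 0.0199). Eif2b3 and Eif2b5, for the catalytic subcomplex, were at 0.01 ± 0.15 and 0.05 ± 0.15 in RNA and 0.17 ± 0.13 and 0.13 ± 0.15 in RPF. DESeq2 called neither Eif2b2 in RNA nor Eif2b1 in RPF. The 5 subunits spanned an 8.504-fold range of mean FPKM in WT RNA and a 2.46-fold range in WT RPF. Without any 1 RNA library Eif2b2 stood at an adjusted p between 0.105 and 0.269, and without WT RPF replicate 1 or null RPF replicate 1 or 2 at 0.0817, 0.0604 and 0.123. Eif2b1 in RPF stood at 0.0537 and 0.0539 without null RNA replicate 1 and 2, and at 0.105, 0.0812 and 0.0867 without WT RPF replicate 1 and null RPF replicate 1 and 2.

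eIF3, the largest initiation factor, binds the small ribosomal subunit and bridges it to the mRNA cap complex. Of its 14 genes 4 fell in RNA, Eif3f, Eif3j1, Eif3g and Eif3h. Eif3f (ENSMUSG00000031029.6, chromosome 7, 108934415 to 108941942, GRCm38), whose product has been reported to bind MIWI, had 206 and 208 CPM in WT RNA and 114 and 118 in null RNA. It had 185 and 136 CPM in WT RPF and 140 and 154 in null RPF. The RNA groups lay far apart and the RPF groups overlapped. Its RNA fell by 0.84 ± 0.14 (adjusted p = 0.00214), its footprints were at -0.13 ± 0.14 (adjusted p = 0.543), and its TE rose by 0.71 ± 0.20 (adjusted p = 0.0452).

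Eif3h, whose product pairs with that of Eif3f in the complex, fell in RNA from 194 and 191 CPM to 151 and 151 (-0.35 ± 0.08, adjusted p = 0.0116) and had 149 and 146 CPM in WT RPF and 169 and 177 in null. Its TE rose by 0.58 ± 0.12 (adjusted p = 0.0153). Eif3d, for the cap-binding subunit, was level in RNA (234 and 221 CPM against 217 and 215) and rose in RPF from 160 and 174 CPM to 270 and 218 (0.54 ± 0.12, adjusted p = 0.00938), with a TE rise of 0.62 ± 0.16 (adjusted p = 0.0378). Eif3g, for an RNA-binding subunit, fell in RNA from 253 and 269 CPM to 197 and 191 (-0.43 ± 0.15, adjusted p = 0.0474). DESeq2 did not call this fall. The RPF groups of Eif3g overlapped (421 and 552 CPM in WT, 510 and 416 in null). Leaving out any 1 RNA library took the TE adjusted p of Eif3d, Eif3f and Eif3h to between 0.0601 and 0.167, and the RNA adjusted p of Eif3g and Eif3h to between 0.0533 and 0.197.

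Eif3j1, for the loosely held eIF3j subunit, was the eIF3 gene that fell in both assays. It had 32.0 and 32.0 CPM in WT RNA and 22.5 and 21.1 in null (-0.55 ± 0.17, adjusted p = 0.0332), and 74.4 and 98.9 CPM in WT RPF and 58.0 and 45.4 in null (-0.75 ± 0.16, adjusted p = 0.00957). Its copy Eif3j2 had 7.72 and 7.59 CPM in WT RNA and 5.36 and 6.80 in null, and 50.05 and 92.2 CPM in WT RPF and 65.6 and 44.6 in null, with neither change past the threshold. In RNA Eif3j1 was at an adjusted p between 0.113 and 0.161 without any 1 RNA library, and in RPF at 0.0662 without null RPF replicate 2. Fragments of these copies may also have been assigned to either.

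In the edgeR fit of the 4 groups alone the remaining eIF3 genes did not pass in RNA, RPF or TE. Eif3a, the scaffold subunit, had 241 and 247 CPM in WT RNA and 204 and 201 in null, and 483 and 743 CPM in WT RPF and 658 and 481 in null (-0.27 ± 0.20 and -0.11 ± 0.20). Eif3c, its partner in the core, had 623 and 986 CPM in WT RPF and 1407 and 1001 in null (0.58 ± 0.22, adjusted p = 0.0839). Its RNA stood at 0.21 ± 0.22. DESeq2 called the rise of Eif3c in RPF. Eif3k was at 0.33 ± 0.11 in RPF (adjusted p = 0.0551) and 0.49 ± 0.15 in TE (adjusted p = 0.0610). Eif3b, Eif3i, Eif3k and Eif3l lay between -0.26 and -0.06 in RNA, and Eif3e and Eif3m at 0.32 ± 0.15 and 0.25 ± 0.12. Without Eif3j1 and Eif3j2, mean FPKM of the 12 other subunits spanned a 4.66-fold range in WT RNA, from Eif3m to Eif3b, and a 6.00-fold range in WT RPF, from Eif3l to Eif3g. With both copies the RNA range was 29.0-fold and the RPF range stayed 6.00-fold.

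**Figure D3:**
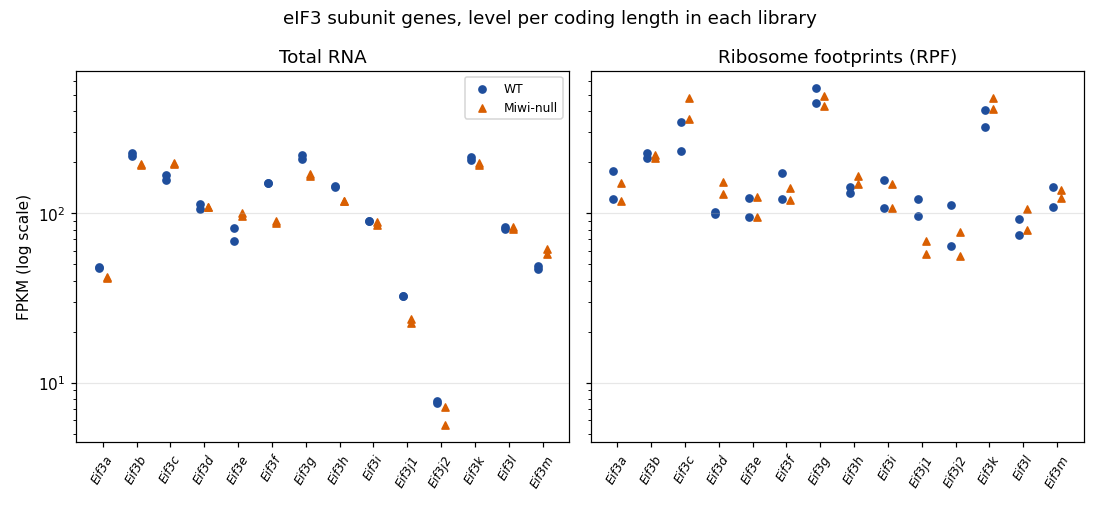
FPKM (log scale) of the 14 eIF3 genes in each library, RNA on the left and RPF on the right, with circles for WT and triangles for Miwi-null. Eif3j1 and Eif3j2 sit below the rest in RNA and near them in RPF, and the null triangles of Eif3f lie below its circles in RNA only.

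Of the 3 genes that act at subunit joining, 1 rose in RPF and 0 were called in RNA with edgeR (0 at an unadjusted p under 0.05 and 0 with DESeq2). With RNA fitted alone Eif5, Eif5b and Eif6 were called higher in RNA, against 59.3% of all genes called. With library kind as a term Eif5 and Eif5b were, against 56.7%. Eif6, which keeps the large subunit from joining too early, had 54.7 and 42.5 CPM in WT RNA and 56.1 and 56.3 in null. Its footprints rose from 66.5 and 66.0 CPM to 101 and 91.3 (0.53 ± 0.13, adjusted p = 0.0158), with TE at 0.32 ± 0.18 (adjusted p = 0.265). Eif5, for the GTPase activator of eIF2, had 289 and 331 CPM in WT RNA and 379 and 372 in null (0.28 ± 0.21, adjusted p = 0.338), and its RPF groups overlapped at 228 and 348 CPM in WT and 362 and 260 in null. Eif5b had 332 and 653 CPM in WT RPF and 913 and 576 in null, where the lower value of each genotype came from the deeper library (0.60 ± 0.30, adjusted p = 0.190). Without null RPF replicate 1 the adjusted p of Eif6 in RPF was 0.0712.

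eIF5A helps the ribosome past stalling stretches such as runs of proline and carries the hypusine modification. The main gene Eif5a had 286 and 303 CPM in WT RNA and 193 and 193 in null (-0.61 ± 0.21, adjusted p = 0.0551), and DESeq2 called this fall. Its RPF groups overlapped, at 292 and 181 CPM in WT and 160 and 214 in null. The minor copy Eif5a2 moved the other way in RNA, from 6.92 and 6.18 CPM to 9.19 and 9.42, a rise of 0.50 ± 0.15 (adjusted p = 0.0303). Its RPF stood at 12.1 and 12.4 CPM in WT and 10.9 and 9.29 in null (-0.29 ± 0.14), and its TE fell by 0.79 ± 0.20 (adjusted p = 0.0348). DESeq2 called Eif5a2 in neither RNA nor TE, and neither did the fit with a replicate block. Leaving out any 1 RNA library took Eif5a2 to between 0.0766 and 0.150 in RNA and between 0.0955 and 0.134 in TE, and leaving out null RPF replicate 2 took TE to 0.0876.

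The elongation factors held the largest RNA falls of the set, and 4 of the 6 tested genes fell in RNA and rose in TE. They were Eef1g, Eef1d and Eef1b2, the gamma, delta and beta subunits of the eEF1B exchange factor, and Eef2. Eef1g (ENSMUSG00000071644.10, chromosome 19, 8967041 to 8978180, GRCm38) had 458 and 490 CPM in WT RNA and 189 and 187 in null RNA, and 92.6 and 141 CPM in WT RPF and 122 and 88.2 in null RPF. In RNA the groups lay far apart, and in RPF they overlapped. Its RNA fell by 1.34 ± 0.21 (adjusted p = 0.00143), its RPF was at -0.16 ± 0.20 (adjusted p = 0.619), and its TE rose by 1.18 ± 0.29 (adjusted p = 0.0300). RPF CPM over RNA CPM went from 0.247 to 0.559.

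Eef2 (ENSMUSG00000034994.10, chromosome 10, 81176631 to 81182509, GRCm38), the translocase, had 3902 and 3417 CPM in WT RNA and 2537 and 2550 in null RNA. In RPF it had 535 and 583 CPM in WT and 574 and 550 in null, with groups that overlapped. Its RNA fell by 0.52 ± 0.09 (adjusted p = 0.00273), its RPF was at 0.01 ± 0.09, and its TE rose by 0.53 ± 0.13 (adjusted p = 0.0298). DESeq2 did not call this TE rise. Eef1b2 fell in RNA from 67.0 and 69.6 CPM to 49.3 and 47.7 (-0.49 ± 0.12, adjusted p = 0.0130), with 118 and 148 CPM in WT RPF and 166 and 160 in null, and its TE rose by 0.79 ± 0.17 (adjusted p = 0.0186). Leaving out any 1 RNA library took the TE adjusted p of Eef1b2, Eef1d, Eef1g and Eef2 to between 0.0513 and 0.151, and the RNA adjusted p of Eef1b2 to between 0.0619 and 0.0970. Without null RPF replicate 1 the TE adjusted p was 0.0516 for Eef1d, 0.0624 for Eef1g and 0.0628 for Eef2, and without null RPF replicate 2 it was 0.0756 for Eef1d and 0.0605 for Eef2.

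Eef1a1, the main eEF1A gene, did not pass in either assay, with 2486 and 2438 CPM in WT RNA and 2184 and 2168 in null (-0.18 ± 0.21), and 415 and 277 CPM in WT RPF and 326 and 473 in null (0.21 ± 0.21). Eef1e1, for a scaffold protein of the tRNA synthetase complex, was at -0.21 ± 0.14 in RNA and 0.14 ± 0.12 in RPF.

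**Figure D4:**
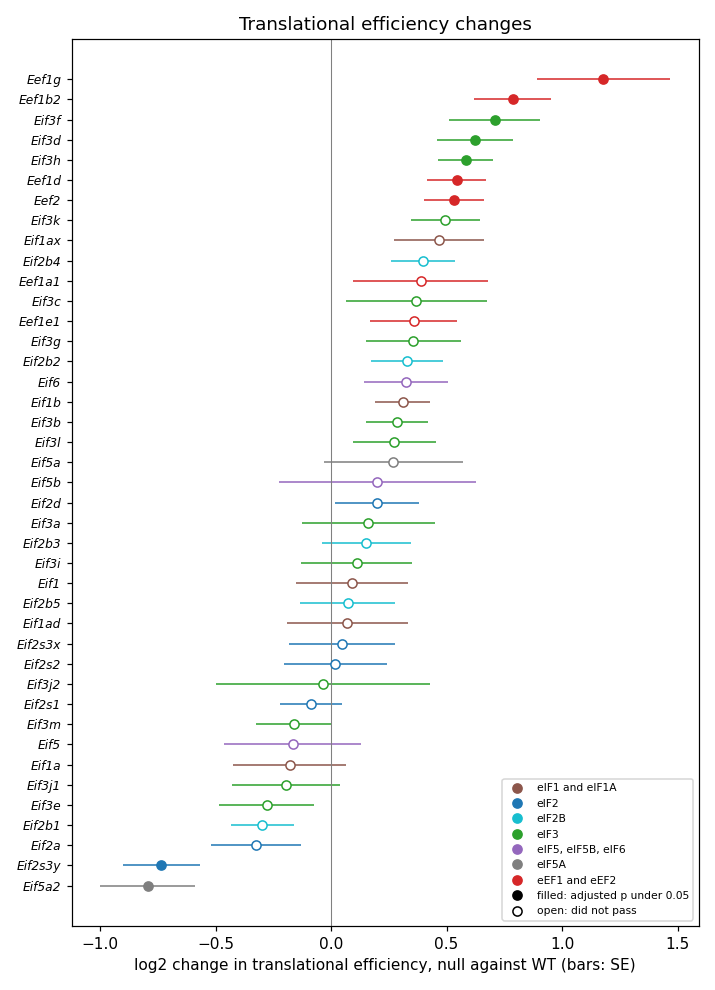
Log2 change in TE, null against WT, with SE bars, for the 41 tested genes in order and coloured by role, filled where the adjusted p is under 0.05. The 7 filled points above 0 run from Eef2 at 0.53 to Eef1g at 1.18 and the 2 below 0 are Eif2s3y at -0.73 and Eif5a2 at -0.79.

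Eef1d (ENSMUSG00000055762.16, chromosome 15, 75894796 to 75909784, GRCm38) was the gene called in both assays under every alternative. It had 790 and 785 CPM in WT RNA and 328 and 314 in null RNA, and 457 and 522 CPM in WT RPF and 290 and 291 in null RPF. Neither pair of groups overlapped. Its RNA fell by 1.29 ± 0.09 (adjusted p = 2.68e-05), its RPF by 0.75 ± 0.09 (adjusted p = 0.000507), and its TE rose by 0.54 ± 0.13 (adjusted p = 0.0273). The chosen Eef1d transcript was not the canonical form. It has 1980 coding bases and the canonical 843, and the longer protein, known from testis and brain, carries an added amino-terminal region.

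The counts of Eef1d were therefore split, after its values had been seen, into the count of the canonical transcript and a long-only part. The canonical count may come from either form. The long-only part is the count of the long transcript less that of the canonical one. It holds fragments of the long transcript only if every canonical fragment was also counted for the long one, which was not checked. The long-only part is 57.4% of the long coding length. It took 55.3% (95% Wilson interval 54.4 to 56.2) and 55.0% (54.0 to 55.9) of Eef1d counts in WT RNA and 55.1% (53.6 to 56.6) and 55.5% (53.9 to 57.1) in null RNA. In the footprints it took 29.7% (28.9 to 30.5) and 31.5% (30.6 to 32.5) in WT and 8.74% (7.82 to 9.76) and 8.44% (7.86 to 9.05) in null. The share was thus level in RNA and fell in footprints, beyond the counting error that these intervals cover.

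In CPM the long-only Eef1d footprints went from 136 and 165 in WT to 25.4 and 24.5 in null, a fall of 2.59 ± 0.12 on the log2 scale (adjusted p = 1.38e-06), while those counted for the canonical transcript went from 321 and 357 to 265 and 266 (-0.35 ± 0.09, adjusted p = 0.0205). In RNA both parts fell alike, by 1.29 ± 0.11 and 1.30 ± 0.09. TE therefore moved in opposite directions within the gene. It fell by 1.30 ± 0.15 (adjusted p = 0.00178) for the long-only part and rose by 0.95 ± 0.13 (adjusted p = 0.00291) for the part counted for the canonical transcript. The late spermatid markers fell in the same libraries, and their part in this change was not tested.

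**Figure D5:**
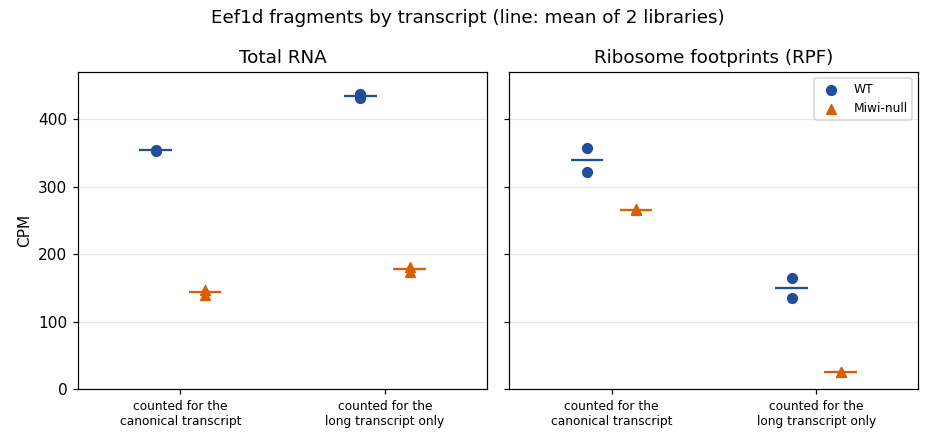
CPM of Eef1d fragments counted for the canonical transcript and for the long transcript only (the long count less the canonical count), in RNA (left) and RPF (right). There is 1 point per library, with circles for WT, triangles for Miwi-null and a line at each mean. The long-only footprints stand at 136 and 165 CPM in WT and 25.4 and 24.5 in null, while in RNA both parts fall to a like degree.

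The authors' deposited table has 15 of the 42 genes as up in TE, 8 as down, 18 as unchanged and 1 as unknown. The rule for these marks is not given in the sources used here. Shares of the marks over all genes were not computed, so the counts cannot be read as particular to these genes. In the authors' deposited table the log2 TE change is 1.05 for Eef1g, 0.75 for Eef1b2, 0.65 for Eif6, 0.58 for Eif3f, -0.93 for Eif5a2 and -0.86 for Eif2s3y. The 9 genes called in TE here carry the same direction there. For Eif1 the authors' deposited table gives -0.50 where the fit gave 0.09 ± 0.24, and the reason for that difference was not tested.

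Other genes of the translation pathway came from lists of the cap-binding factors, kinases and phosphatases, modifying enzymes, termination and recycling factors, and mitochondrial and selenocysteine factors. Of all genes tested, 20.8% fell and 16.5% rose in RNA, 13.4% and 12% in RPF, and 7.56% and 7.36% in TE. These shares stand beside the counts of each list, here and below, which were not tested against them. Of 15 tested genes of eIF4F and its partners 6 fell and 2 rose in RNA, 2 fell in RPF, and 2 rose and 1 fell in TE. Eif4h, a helper of the eIF4A helicase, fell by 1.19 ± 0.17 in RNA and rose by 1.19 ± 0.23 in TE. Eif4b, a second such helper, fell by 0.51 ± 0.13 in RNA and rose by 0.86 ± 0.18 in TE. The cap scaffold Eif4g1 fell by 0.97 ± 0.10 in RPF and by 0.78 ± 0.10 in RNA, with TE at -0.20 ± 0.14. Eif4g2, a scaffold that lacks the cap-binding part, fell by 0.79 ± 0.19 in TE. Its RNA rose by 0.55 ± 0.14 and its RPF was at -0.24 ± 0.14. Of 7 kinase and phosphatase genes 2 rose in RNA and 1 in RPF, led in both by Eif2ak2, the double-stranded RNA kinase PKR (1.59 ± 0.21 and 0.90 ± 0.19).

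Of 12 tested modifying enzyme genes 2 rose and 1 fell in RNA, 1 fell in RPF and 1 moved each way in TE. The calls included 3 genes of diphthamide synthesis on eEF2. Dph7 and Dph1 rose in RNA by 1.18 ± 0.15 and 1.02 ± 0.14, and Dph2 fell by 0.82 ± 0.15. Footprints of Dph7 were at 0.19 ± 0.16 and its TE fell by 0.98 ± 0.22, while footprints of Dph2 were at -0.03 ± 0.13 and its TE rose by 0.79 ± 0.20. Of 8 termination, recycling and rescue genes 3 fell in RNA, 4 fell and 1 rose in RPF, and 1 rose in TE. The release factor Etf1 and the recycling factor Abce1 each fell by 0.64 in RPF (SE 0.12 and 0.15). Of 9 mitochondrial and selenocysteine factor genes 1 rose and 2 fell in RNA, 3 rose in RPF and 1 rose in TE. Mtif2, the mitochondrial initiation factor, rose by 2.10 ± 0.14 in RNA and 1.56 ± 0.13 in RPF. Of the list of reported MIWI partners in translation, Elavl1 and Pabpc1 were tested beside Piwil1 itself, and Piwil1 was the gene called, lower in RNA and RPF.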

How the data were processed

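Total RNA and RPF were measured in 2 WT and 2 Miwi-null libraries each. The authors deposited whole-number fragment counts per transcript without normalization, per the file headers, beside FPKM computed by the authors from those counts and a length column. Of the lengths 84.7% are multiples of 3, so they are coding lengths. The authors also deposited a log2 change in TE per gene. Per the submitters' processing notes the tools were STAR 2.5.0a, Bowtie 1.2.2 and cutadapt 2.5, with build GRCm38. The counting program, its use of strand and its handling of multiply mapping fragments were not given in the sources used here, so overlapping genes on opposite strands and close copies cannot be told apart. Transcript counts summed over a library came to 2.23 to 2.39 times the gene counts, so a fragment is counted for several transcripts of a gene.

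In R 4.3.3, edgeR 4.0.16 filtered genes (filterByExpr, minimum count 10, minimum total 15), scaled 8 libraries by TMM and fitted a robust quasi-likelihood model to 4 groups with 4 residual degrees of freedom. A gene was called where its p, adjusted by Benjamini-Hochberg over 16051 genes, was under 0.05. Errors are standard errors of that model, and changes are relative to the bulk of genes. CPM of single genes and of the Eef1d parts are TMM-scaled. The summed CPM of markers and the CPM worth of 1 count use library totals without TMM. The script was tested on simulated counts. DESeq2 1.42.0, other scalings, filters and transcripts, a replicate block, removal of a length trend (loess, span 0.5) and each library left out were alternatives. The tested genes named in full were, per comparison and direction, up to 10 called members by size of change, the close copies and the centre members Eif2s1, Eif3a, Eif3f, Eif5, Eif6 and Eef2, and up to 2 called genes per direction from the pathway lists. The split of Eef1d was chosen after its values were seen. The members and lists were chosen with earlier results of these data known. Wilson intervals on shares cover counting error only. Start sites came from RefSeq tables of GRCm38.p6.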

Additional observations from a re-analysis of the deposited data

How the results depend on the processing

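Of 41 tested genes, 16 were called in RNA, 6 in RPF and 9 in TE. With each assay fitted alone the counts were 28 in RNA and 1 in RPF, with 59.3% and 12.7% of all genes called. Leaving out 1 library at a time gave 8 to 20 calls in RNA, 4 to 11 in RPF, 0 to 12 in TE and 27 to 34 for RPF against RNA in WT, where all libraries gave 31. No TMM left 4 calls in TE, 2 higher and 2 lower, against 7 and 2, with 14.5% of all genes called against 14.9%. With the trend on coding length removed, Eif1b in RNA reversed to 0.0593 (adjusted p = 0.632), and 5 genes were higher and 2 lower in RPF against 2 and 4. The replicate block left 11 calls in RNA, 5 in RPF, 2 in TE and 30 for RPF against RNA in WT. The shares of all genes called with it were 31.3%, 19.1%, 7.71% and 71.2%. Replicate numbers share no source in the labels and were not taken as pairs. Differences between replicate 1 and 2 correlated at r = 0.00836 between WT and null RNA and -0.831 between WT and null RPF over 10171 genes, which are not independent. Crossing the pairing in RPF, an alternative added after seeing the data, gave 27 calls in RNA (9 higher, 18 lower), 20 in RPF (11 higher, 9 lower) and 24 in TE (20 higher, 4 lower), with 56.7%, 51% and 40.7% of all genes called. Its p-values may be too small, since the term was chosen from those replicate differences. It was not run for RPF against RNA in WT, where it would compare 1 library kind only. The canonical transcript, also added then, gave 17, 6, 9 and 31, with 37.1%, 25.2%, 14.8% and 73.9% of all genes called. Medians over the genes moved by less than the median SE of a single gene under every alternative. That SE is not the error of a median over 41 genes. It was larger than the size of the RNA and RPF medians and close to that of the TE median. Without TMM the TE median fell and the RPF median changed sign, and both still stayed within it. This comparison therefore cannot show that the medians are stable. Of the 25, 35 and 32 genes not called in RNA, RPF and TE, 13, 15 and 15 were called under some alternative. The like counts over all genes were not taken, so these cannot be read as particular to the factor genes. The TE fit could not be made within 1 assay, and the length trend was not run for RPF against RNA in WT. With 2 libraries a group and footprint replicates that spread more than RNA replicates, a change that misses the threshold may still be present.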
